A study of Mus musculus with 6 samples.

Results

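In the ChIRP-seq peak list of the mouse limb, an annotated exon was met by 307 of 2880 peaks, or 10.7%, with a minimum overlap of 1 bp. The 95% Wilson interval of this share, which like all such intervals here covers counting error alone, was 9.58% to 11.8%. The exons were those of every gene type in the GENCODE M1 annotation of the mouse genome build mm9, and no score cutoff was applied. Of these exon peaks, 226 met coding sequence, 52 met an untranslated region (UTR) but no coding sequence, and 29 met neither and so only noncoding exons. The same rule gave 254 exon peaks among the 2919 peaks of the glial control list.

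The study asked where the long noncoding RNA *LncRNA-HIT* contacts chromatin in the limb bud at embryonic day (E) 11. Chromatin came from the pooled distal limb buds of wild type Swiss Webster embryos, and each of an odd and an even set of biotinylated probes was hybridized to it separately, beside 1 input library. The control was chromatin of a murine glial cell line from another laboratory, which the study gives as not expressing *LncRNA-HIT*, processed with the same probes and its own input. The labels name embryonic brain of the same strain at E 11.0 as its source, while the protocol text gives another stage. No altered allele or treatment is given for either tissue. The 2 probe sets of a tissue were merged into 1 deposited list, so there are no replicates, no difference described here could be tested over samples, and how many reads formed a peak is not known. No expression values accompany the peaks, so the tissue labels could not be set against marker genes. A peak's score is given as −log10(p), the negative log10 of the p-value from the authors' peak caller, and the study threshold is a p-value of 5.9e-57.

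A ChIRP probe is a short DNA that binds the RNA of interest, and streptavidin beads then recover the chromatin attached to that RNA. Exons are the parts of a gene kept in the mature transcript, coding exons specify protein, and UTRs flank the coding sequence. Most exons of a vertebrate gene are short and lie between long introns, so a ChIRP fragment that covers a coding exon usually also holds intron sequence. Long noncoding RNAs that stay in the nucleus are known to act on chromatin in cis and in trans.

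Exon edges in the peaks on developmental genes are shown first, because they give what the peaks cover. Each line holds 30 bases of mm9 read along the gene's strand, with exon bases in capitals and intron bases in lower case. The exon edge is the one nearest to the centre of the coding peak.
Adam17, end of an exon, chr12:21342479-21342508, minus strand: CACGAGAATAATAAGgtatgtgtgtttgga
Ctnnb1, start of an exon, chr9:120860125-120860154, plus strand: cccactaatgtccagCGCTTGGCTGAACCA
Adamts5, end of an exon, chr16:85888047-85888076, minus strand: TGGCTCATGAAATTGgtatgcaacgccttt
Ctgf, end of an exon, chr10:24316735-24316764, plus strand: GAGGAAAACATTAAGgtacatcctctgccc
Bmpr1b, end of an exon, chr3:141505834-141505863, minus strand: TGGAGCAGTGATGAGgtaaggctaggctta

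The peaks these edges belong to scored between 41.5 and 89.9. An exon edge lay inside 256 of the 307 limb exon peaks, and 51 peaks lay wholly within exons. Across the 307 peaks 45.1% of the bases were exonic. The coding class was 40.0% exonic, with a median of 136 bp of exon in peaks of a median width of 408 bp. The UTR class was 65.9% exonic, and 26 of its 52 peaks lay wholly within exons, against 17 of the 226 coding peaks.

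Some exon peaks also held bases identical to a ChIRP probe. The longest run of identical bases in any limb exon peak was 13 of the 20 bases of a probe, and 4 peaks reached it. Each pair of lines gives the mm9 bases, read in the direction of the probe, and then the probe as deposited, with the identical run in capitals. The 4 runs of 13 bases and the 3 highest-scoring peaks with runs of 12 bases are printed.
Gucy2f, chrX:138528636-138528655, minus strand: aaaagctCACAGGGAGTCTG
Probe 1, odd set, set against Gucy2f: catttgcCACAGGGAGTCTG
Gga1, chr15:78718713-78718732, minus strand: gggtGGGCTGGGAGTGAgct
Probe 16, even set, set against Gga1: gtgaGGGCTGGGAGTGAatg
Adarb1, chr10:76784386-76784405, minus strand: CATTTGCCACAGGtgaggaa
Probe 1, odd set, set against Adarb1: CATTTGCCACAGGgagtctg
Prkcq, chr2:11170217-11170236, plus strand: CAAGGTCAAGGTTccacaag
Probe 7, odd set, set against Prkcq: CAAGGTCAAGGTTtaaggcc
Adam17, chr12:21342614-21342633, plus strand: tcCCAATTCATGAGttgtaa
Probe 9, odd set, set against Adam17: gaCCAATTCATGAGctgtca
Gna12, chr5:141238651-141238670, minus strand: ctcctagtCCTGTCCTTTCA
Probe 5, odd set, set against Gna12: accaaaaaCCTGTCCTTTCA
Adrm1, chr2:179908414-179908433, plus strand: tcttgcATTGTGATCATTgg
Probe 20, even set, set against Adrm1: gtccgtATTGTGATCATTtt

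Another kind of sequence recurred in exon peaks with scores from 19.4 to 310. The 24-base word found in the most limb exon peaks occurred in 17 of them and in 19 glial exon peaks. Peaks without an exon held the same word too, 8 in the limb list and 7 in the glial list, so it is not particular to exon peaks. It is printed in capitals throughout because the whole word is shared, from the first limb exon peak that holds it.
Word shared by 17 limb exon peaks, here in the Gm10801 peak, chr2:98502464-98502487, plus strand: GTTTCTCATTTTCCATGATTTTCA

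The word was present 118 times in mm9, of which 103 copies were on chromosome 9. The 17 limb peaks lay in a stretch of chromosome 9, with 14 peaks, and a stretch of chromosome 2, with 3 peaks, which are described below with their scores.

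To see whether limb peaks met exons more often than the genome at large, every window of 408 bp without unknown bases was counted over all chromosomes. An exon was met by 6.77% of these windows, against 10.7% of limb peaks, a ratio of 1.57. The glial list gave 8.70% (95% Wilson interval 7.73% to 9.78%) and a ratio of 1.29. Coding exons were met by 7.85% of limb peaks, 5.93% of glial peaks and 4.28% of windows. The UTR class held 1.81% of limb peaks and 1.42% of windows, and the interval of the limb share, 1.38% to 2.36%, included the window share. Peaks that met only noncoding exons made up 1.01% of the limb list against 1.07% of windows. The midpoint of the peak lay in an exon for 138 limb peaks, 4.79% of the list, while 3.40% of all known bases were exonic. The windows take no account of how well reads can be placed, of base composition or of the spread of peak widths. Limb peaks were 202 to 4825 bp wide, with quartiles of 403 and 432 bp, and a wider peak can meet an exon more readily. The part of each of these in the ratios was not tested. The median GC content was 50.6% in coding peaks, 46.5% in UTR peaks, 44.7% in noncoding peaks and 43.6% in limb peaks without an exon.

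**Figure D1:**
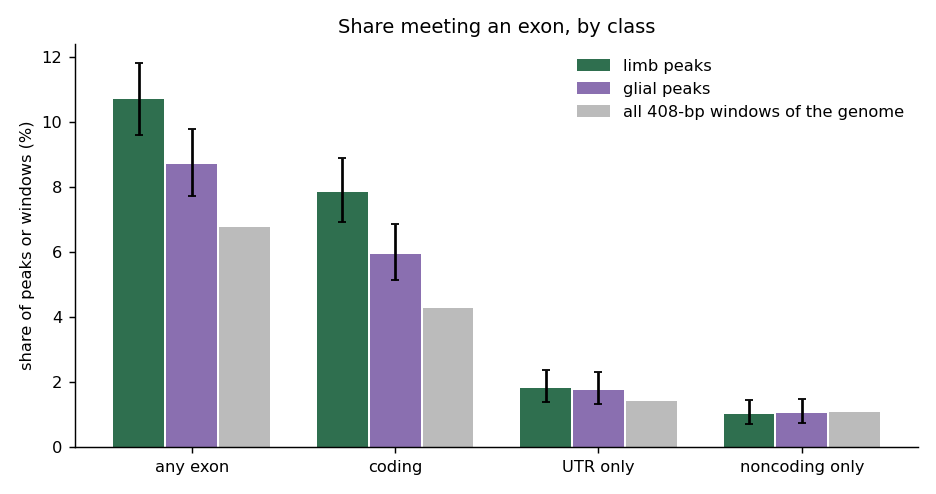
Share of peaks, in percent, that met any exon, coding sequence, a UTR without coding sequence, or only noncoding exons, for the limb list, the glial list and all 408-bp windows of mm9, with 95% Wilson intervals on the peak shares. The limb bar stands above the window bar for coding exons (7.85% against 4.28%) and level with it for noncoding exons (1.01% against 1.07%).

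The limb exon peaks spanned −log10(p) of 6.22 to 310 with a median of 36.3 and quartiles of 17.6 and 59.8. Limb peaks without an exon had a median of 34.7 with quartiles of 17.5 and 57.3. This order turned when the 4 stretches described next were left out, with medians of 31.2 in the exon peaks and 34.6 in the others, and also in peaks low in repeated sequence, with 32.3 and 34.0. By class, the medians were 36.6 in coding, 33.8 in UTR and 35.9 in noncoding peaks. At the study threshold stood 90 of the 307 exon peaks (29.3%, 95% Wilson interval 24.5% to 34.6%), against 26.9% of all limb peaks. Outside the 4 stretches the share was 25.2% of exon peaks (20.4% to 30.6%), against 26.3% of all limb peaks there.

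**Figure D2:**
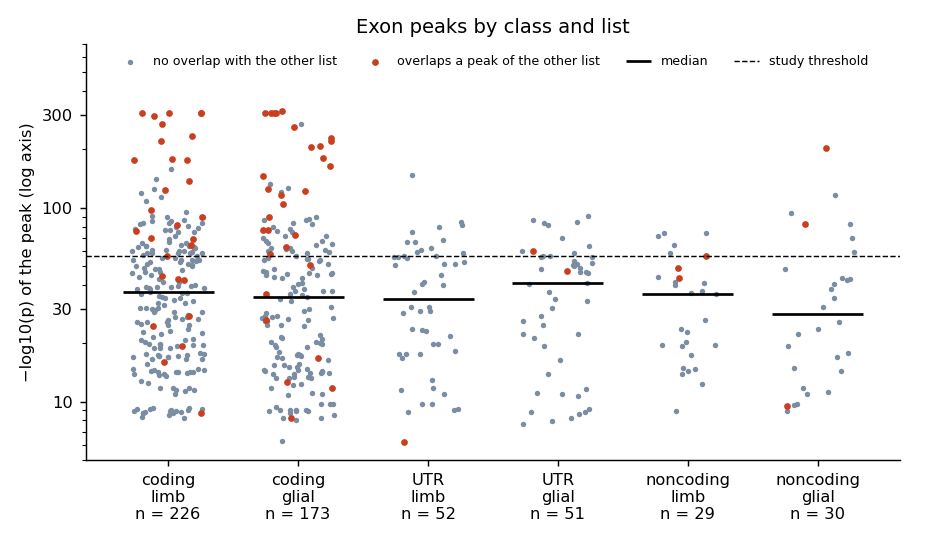
Score of every exon peak as −log10(p) on a log axis, by class and list, with the median as a bar, the study threshold as a dashed line and peaks that overlap the other list in red. Red points fill the top of both coding columns, and the limb medians lie between 33.8 and 36.6.

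A larger share of exon peaks than of other limb peaks overlapped the glial list, and 29 of the 33 overlaps lay in 4 short stretches. A glial peak was overlapped by 33 of the 307 limb exon peaks (10.7%, 95% Wilson interval 7.76% to 14.7%), by 3.03% of limb peaks without an exon (2.44% to 3.77%) and by 3.85% of all limb peaks. Of the 33, 29 were coding, 1 was UTR and 3 were noncoding. The stretches were defined, after the positions were seen, as runs of at least 3 overlapping exon peaks with gaps of at most 100 kb. They held 33 limb exon peaks, of which 29 overlapped a glial peak. Outside them 4 of 274 exon peaks did so (1.46%, 0.569% to 3.69%), as did 2.59% of the other limb peaks. Because the stretches were built from overlapping exon peaks, the low exon share outside them follows from the rule. Its order against the other peaks is no separate result.

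The stretch on chromosome 9, chr9:2999821-3038402, held 14 limb exon peaks on 11 predicted genes, and all 14 overlapped a glial peak. Their scores ran from 19.4 to 310 with a median of 129. Between 85.1% and 100% of the 24-base words in each of these peaks occurred more than once in mm9. The named coding models were *Gm10717* at 310, *Gm17535* at 298 and 43.0, *Gm10722* at 271 and 234, *Gm10719* at 179 and 19.4, *Gm11168* at 177, *Gm10720* at 176, *Gm10718* at 81.1, *Gm10716* at 75.8, *Gm10106* at 56.6 and *Gm10715* at 44.3. The noncoding model *Gm16869* had a peak of 43.3. Glial exon peaks on the same stretch numbered 17, with scores of 6.29 to 230 and a median of 77.2.

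On chromosome 2, chr2:98502221-98507653, both lists had 3 exon peaks on the coding models *Gm10801* and *Gm10800*. In the limb *Gm10801* scored 310 and 137 and *Gm10800* scored 310. The glial values were 310, 146 and 310, and repeated words made up 44.2% to 78.0% of the limb peaks. The highest scores of the limb list are tied at 310, so these peaks cannot be ranked against each other.

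Chromosome 11 carried the longest of the stretches, chr11:3032871-3096653, almost all of it *Sfi1*, which encodes a centrosomal protein. *Sfi1* had 12 limb exon peaks, more than any other gene, and was the gene named for 16 glial exon peaks. A glial peak named for the neighbouring *Drg1* also met an *Sfi1* exon. Along the gene the limb peaks scored 24.6, 51.5, 69.0, 55.3, 70.0, 18.8, 42.2, 108, 96.9, 123, 220 and 6.22. The 16 glial peaks ran from 26.4 to 317 with a median of 94.1, against 62.1 in the limb. Of the 12 limb peaks 8 overlapped a glial peak. Their repeated words made up 0% to 30.8%, against at least 44.2% in every exon peak of the stretches on chromosomes 9 and 2. The processed pseudogene *Fau-ps2* at one end scored 56.2 in the limb and 82.4 in the glial list.

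Mitochondrial DNA, which is almost wholly exonic, gave 3 limb peaks over the respiratory chain and ribosomal RNA genes. The peak named for *mt-Nd5* spanned 4825 bp and scored 310, that for *mt-Nd1* scored 89.4 and that for *mt-Rnr1* scored 48.8. Each overlapped a glial peak of 310.

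**Figure D3:**
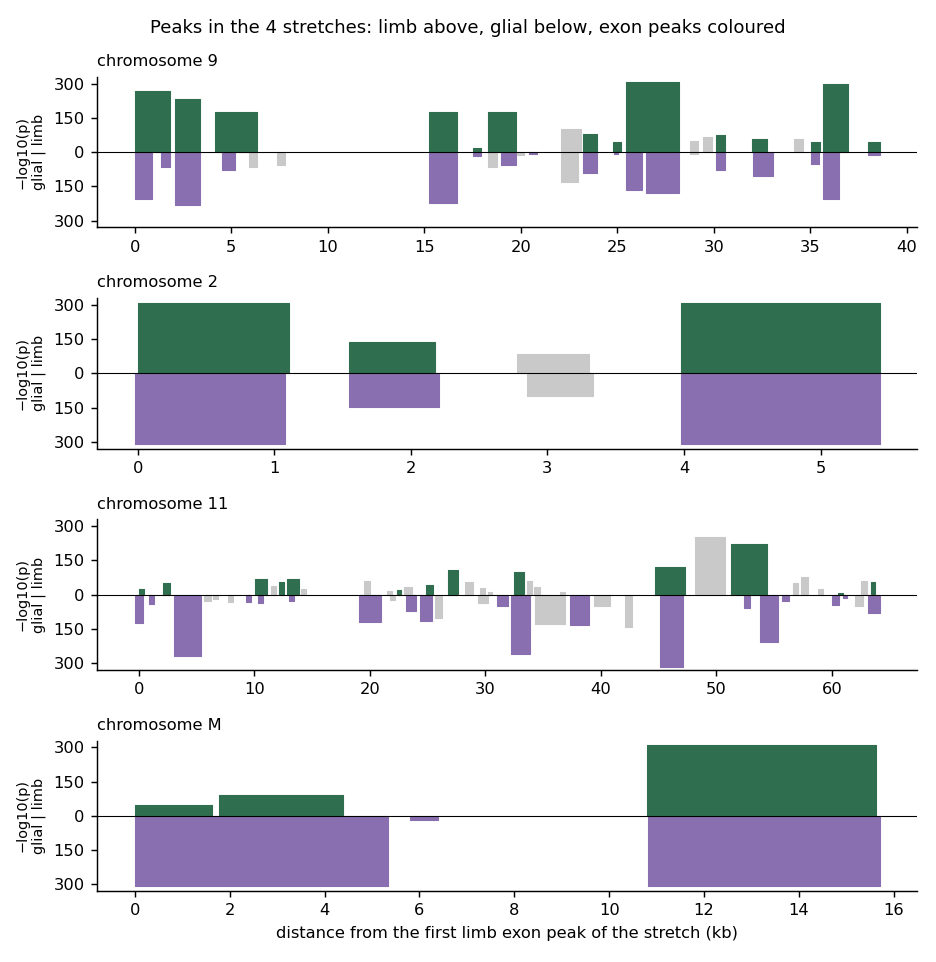
Peaks of the stretches on chromosomes 9, 2, 11 and M, drawn by distance in kb from the first limb exon peak, with limb −log10(p) upward and glial −log10(p) downward, exon peaks coloured and other peaks grey. On chromosome 2 each limb peak faces a glial peak, on chromosome 9 all 14 limb exon peaks do but some other peaks do not, and on chromosome 11 the 13 limb and 19 glial exon peaks are spread over the whole stretch.

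Outside the stretches, the 4 exon peaks with a glial overlap lay on *Klrg2*, a lectin-like receptor gene, *Th*, tyrosine hydroxylase of catecholamine synthesis, *Irf7*, a transcription factor of the interferon response, and *Pias1*, a SUMO ligase. *Klrg2* scored 64.4 in the limb and 22.6 in the overlapping glial peak. *Th* scored 27.5 and 22.2. *Irf7* scored 16 and 8.27, and *Pias1* scored 8.72 and 11.7. Only *Klrg2* of these 4 was at the study threshold. Fewer than 2% of the words in each of these peaks were repeated.

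The stretches supplied the top of the exon list. All of the 10 highest-scoring limb exon peaks lay in them and overlapped a glial peak, and of the top 50, which reached down to 71.6, 18 lay in them. Peaks low in repeats, with under 10% repeated words, made up 80.8% of the exon peaks and 74.1% of all limb peaks. Among low-repeat exon peaks 11 of 248 overlapped a glial peak (4.44%), against 1.33% of the other low-repeat limb peaks. Of these 11, all but the 4 named above lay in the stretches. Outside the stretches 238 exon peaks were low in repeats, and those 4 were the only ones to overlap.

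**Figure D4:**
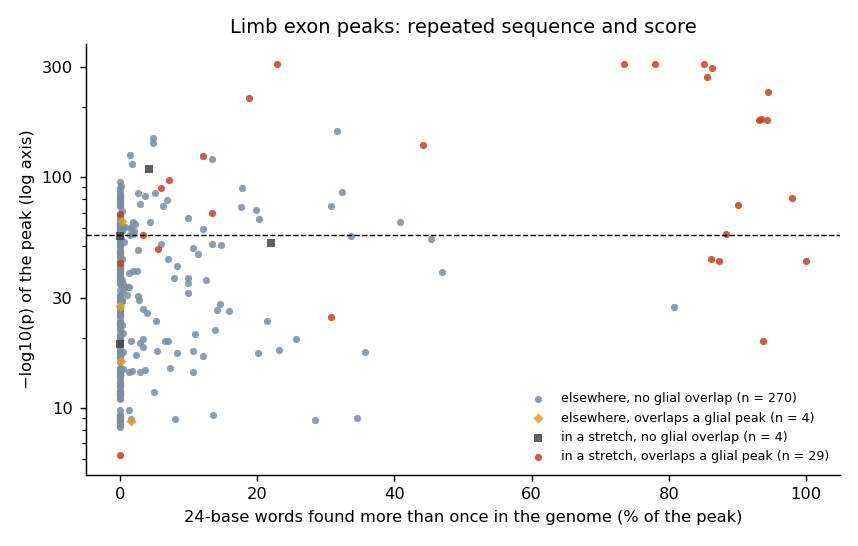
Score of each limb exon peak as −log10(p) on a log axis against the percentage of its 24-base words found more than once in mm9, with colour and shape giving the stretch and the glial overlap, and the study threshold dashed. Of the points past 60% repeated words, 1 lies outside the stretches, and the 270 peaks with neither a stretch nor a glial overlap gather at the left.

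Coding exon peaks outside the stretches numbered 197. The strongest was on *Sag*, the rod arrestin that ends the photoreceptor signal, at chr1:89717346-89718153 with a score of 158 and 31.7% repeated words. *Tmem132d*, a neuronal transmembrane protein gene, followed at chr5:128617023-128618553 with 140. *Stard7*, a lipid transfer protein gene, had 125 at chr2:127117697-127118203. The next were *Unc13a*, which primes synaptic vesicles, at chr8:74163572-74164353 with 119, and *Alox5ap*, the 5-lipoxygenase activating protein, at chr5:150083921-150084928 with 114. None of these 5 overlapped a glial peak, and of all exon peaks outside the stretches only 4 of 274 did. *Ptdss1*, a phosphatidylserine synthase, scored 95, *Zbtb40*, a zinc finger gene, scored 91.2, and *Tnfrsf1b*, a receptor for tumour necrosis factor, scored 89.5 with 12 bp of exon in the peak. In all, 172 of the 226 coding peaks (76.1%) were on internal exons, 22 on first, 27 on last and 5 on single exons.

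UTR peaks were mostly 3′ UTR peaks. Of the 52, 40 met a 3′ UTR and no 5′ UTR, 12 met a 5′ UTR and no 3′ UTR, and 39 (75%) lay on the last exon of the transcript. The glial list was alike, with 41 of its 51 UTR peaks meeting a 3′ UTR and no 5′ UTR, and 80.4% on the last exon. In the limb *Ell2*, an elongation factor of RNA polymerase II, had the highest score, 147. All 708 bp of its peak at chr13:75909071-75909778 were 3′ UTR. *Rdh13*, a retinol dehydrogenase gene, scored 84.9 with only 7 bp of exon. *Aqp9*, a channel for water and glycerol, scored 81.9 and *Orc2*, of the origin recognition complex, scored 79.7, and both peaks lay wholly in the 3′ UTR. *Hook2*, an adaptor between microtubules and cargo, scored 75.1, with 143 bp of 3′ UTR in a peak of 432 bp. *Trim3*, a ubiquitin ligase, scored 66.4, with 120 bp of 3′ UTR in a peak of 433 bp. *Crb1*, of the apical polarity complex, scored 66.5 and *Zfp704*, a zinc finger gene, 61.7, with both peaks wholly in the 3′ UTR. The predicted genes *Gm5460* and *Gm46* had 5′ UTR peaks of 67.8 and 60.6. Of the 52 UTR peaks, 1 overlapped a glial peak, the *Sfi1* peak of score 6.22, against 3.85% of all limb peaks. A UTR was also met by 52 of the coding peaks, so 104 exon peaks met a UTR in all.

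Noncoding exon peaks were spread over several gene types. Of the 29, 11 lay on noncoding transcripts of protein-coding genes, 7 on genes annotated as processed transcripts, 6 on long intergenic noncoding RNAs, 4 on pseudogenes and 1 on mitochondrial ribosomal RNA. *Adrm1*, a ubiquitin receptor of the proteasome, scored highest, 74.5, through a retained-intron transcript at chr2:179908046-179908601. The processed transcript *5830428H23Rik* scored 73.9, and *Cd300lf*, a receptor of myeloid cells, scored 71.6. *Gm13849* at 63.9 and *Gm13266* at 43.9 were long intergenic noncoding RNAs by their transcripts. *Fancc*, a Fanconi anaemia gene of DNA repair, scored 58.1 and *Slc25a12*, a mitochondrial carrier gene, scored 41.5 with 6 bp of exon. With *Fau-ps2*, *mt-Rnr1* and *Gm16869*, given above, these are the 10 of highest score. In this class 5 of 29 peaks were at the study threshold (17.2%, 7.60% to 34.5%).

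At the edge of the rule, *Slc25a12*, *Kirrel* and *Ddx10* were inside with 6 bp of exon and scores of 41.5, 14.2 and 14.7. Just outside were peaks 1 bp from an exon of *Sfi1* and 5 bp from an exon of *Gm17207*, with scores of 37.5 and 9.11. In 31 of the 307 peaks the exon part was under 50 bp, and 49 limb peaks outside the rule lay within 100 bp of an exon.

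Genes of limb development were then examined by list. An exon peak was found on 311 of the 33924 annotated gene symbols (0.917%) and on 273 of the 22238 protein-coding ones. None of the 37 limb patterning genes examined had one. Of 30 genes of chondrogenesis and matrix, 3 had one, of 24 genes of the BMP pathway 1, of 17 genes of the Wnt pathway 1, and of the 4 genes for p100, CBP, p300 and STAT6 none. These 5 genes, among 112 examined, were all genes that the study itself had picked from these samples as lying near a peak, so they are no independent evidence of a theme.

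*Adam17*, which sheds growth factors and tumour necrosis factor from the cell surface, had the highest score of the 5, 89.9. *Ctnnb1*, the β-catenin of Wnt signalling and cell adhesion, scored 59.9 with 273 bp of exon. *Adamts5*, a protease of the cartilage proteoglycan aggrecan, scored 59.3, and *Ctgf*, a matricellular growth factor, scored 58.4 with 335 bp of exon. *Bmpr1b*, a BMP receptor required for digit cartilage, had 2 separate exon peaks, a coding peak of 41.5 and a peak of 19.8 wholly within its 3′ UTR. Neither was at the study threshold, while the peaks of the other 4 genes were. None of these genes had a glial exon peak, which 246 of the 33924 annotated gene symbols had. The glial list in turn had 2 exon peaks on *Snd1*, the gene for p100, with scores of 61.6 and 70.2.

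Of the 39 annotated genes that the study picked near a peak and that are reported here, 12 had a limb exon peak. Beside the 5 above and *Tmem132d*, *Stard7*, *Unc13a*, *Alox5ap*, *Zbtb40* and *Ell2*, this list held *Sap130*, a subunit of a histone deacetylase complex, with a score of 74.7. No exon peak of these 12 overlapped a glial peak, and 11 reached the study threshold. Of all limb peaks 3.85% overlapped a glial peak and 26.9% were at the threshold. The authors chose among peaks past their threshold and absent from the glial control, so neither count is independent of that choice.

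Counted by the 1 gene named for each peak, 12 genes outside the stretches had 2 limb exon peaks, and inside them *Sfi1*, *Gm10722*, *Gm17535*, *Gm10719* and *Gm10801* had several. Counted by every gene whose exon was met, *Gm16869* had 5 and *mt-Rnr2* had 2, in peaks mostly named for other genes. *Ace*, angiotensin-converting enzyme, had 86.2 on a coding exon and 23.4 in the 3′ UTR. *Frmd8* had 61.7 and 38.9, *Zfp704* 61.7 and 40.1, *Rabep1* 77.3 and 21.1, and *Prdm6* 51.3 and 29.0. The pairs of *Dpf2* (53.7 and 17.2), *Cacna1c* (47.5 and 19.9), *Dmxl2* (44.0 and 11.5), *Fbp1* (41.6 and 23.8), *Trim3* (66.4 and 8.81) and *Olfr987* (55.5 and 9.05) followed. With *Bmpr1b* these are the 12, and none of their peaks overlapped a glial peak. Of all exon peaks outside the stretches only 4 of 274 did, so this absence is near the share there.

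Runs of at least 12 bases identical to a probe were counted in exon peaks and in the rest of the limb list. Such a run was found in 15 of 307 exon peaks (4.89%, 95% Wilson interval 2.98% to 7.90%), in 8.06% of all limb peaks and in 8.43% of limb peaks without an exon (7.42% to 9.57%), and these intervals overlapped. By another measure, at least 15 of the 20 bases of a probe identical without gaps, the shares were 16.9% of exon peaks (13.2% to 21.5%) and 18.1% of the other limb peaks (16.7% to 19.6%). Exon windows of the genome held a run of at least 12 bases in 1.20% of cases and other windows in 1.19%. In the glial list 2.76% of exon peaks (1.34% to 5.58%) and 2.81% of all peaks had a run of at least 12 bases. The intervals of limb and glial exon peaks overlapped too. Overlap of intervals does not show that the shares are alike, and neither difference was tested. No exon peak had a run of 14 bases, while 22 of the 2573 other limb peaks did, so none of the exon peaks held a whole probe site.

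Of the 15 runs, 5 lay wholly in an exon, 1 partly and 9 outside exons, at a median of 102 bp from the peak centre. Since 45.1% of the bases of all limb exon peaks were exonic, this split is near the make-up of the peaks. Probe 16 of the even set gave 5 runs and probe 1 of the odd set gave 3. In total 6 peaks matched the odd set and 9 the even set, and none matched both. None of the 15 overlapped a glial peak, which for so few peaks is near the 3.85% of all limb peaks that did.

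In the sequences printed above, the *Adam17* run, wholly exonic, was part of a stretch with 16 of 20 bases identical to probe 9. *Adarb1*, an adenosine deaminase that edits RNA, had 12 of its 13 matching bases in the exon and scored 46.8. *Adrm1* had its run in the retained intron that the annotation counts as exon. The runs of *Gucy2f*, a retinal guanylate cyclase (60.1), *Gga1*, a sorting adaptor (52.6), *Prkcq*, a protein kinase C of T cells (30.5), and *Gna12*, a G protein subunit (85.3), were all intronic.

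The other 8 peaks with a 12-base run lay on *Kctd19* (62.6), *Ell*, an elongation factor (43.0), *Jak1*, a cytokine receptor kinase (40.0), *5730419I09Rik* (39.2), *Gm16936* (35.9), *Smg1*, a kinase of nonsense-mediated decay (27.4), *Ager*, a pattern recognition receptor (19.9), and *Scin*, an actin-severing protein (9.73). Of all 15 peaks, 5 were at the study threshold.

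**Figure D5:**
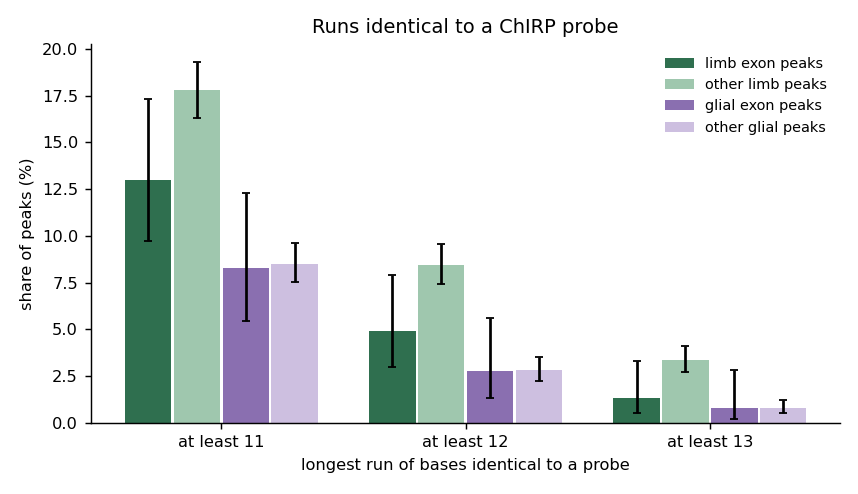
Share of peaks, in percent with 95% Wilson intervals, whose longest run identical to a probe reached at least 11, 12 or 13 bases, for exon peaks and other peaks of each list. Limb exon peaks stand below the other limb peaks at each length (13% against 17.8% at 11 bases), and glial exon peaks stand level with the other glial peaks (8.27% against 8.52%).

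The glial exon peaks had a similar make-up, with 173 coding (68.1%), 51 UTR (20.1%) and 30 noncoding peaks (11.8%), against 73.6%, 16.9% and 9.45% in the limb. At the study threshold were 73 of the 254 (28.7%), against 24% of all glial peaks. A limb peak was overlapped by 35 of them (13.8%, 10.1% to 18.6%), against 3.56% of the whole glial list, and outside the stretches by 2 of 212. The last count is low by construction, since the stretches were built from such overlaps. The 10 glial exon peaks of highest score all lay in the stretches, on *Sfi1* (317, 270, 261 and 208), *Gm10801* (310), *Gm10800* (310), 2 mitochondrial peaks (310 each), *Gm10722* (230) and *Gm10720* (221). Outside the stretches 7.41% of glial peaks (6.51% to 8.43%) and 9.70% of limb peaks (8.66% to 10.8%) met an exon. Both shares are lowered by construction, since the stretches were built from exon peaks. The window share of 6.77% still covers the whole genome, so these shares cannot be set against it. With all peaks, the glial interval (7.73% to 9.78%) and the limb interval (9.58% to 11.8%) both lay above the window share.

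Counting every gene whose exon was met, exon peaks of both lists fell on 43 genes, 13.8% of the 311 limb genes and 17.5% of the 246 glial genes. Of these, 20 were mitochondrial: *mt-Cytb*, *mt-Nd1*, *mt-Nd2*, *mt-Nd4*, *mt-Nd5*, *mt-Nd6*, both ribosomal RNAs and 12 transfer RNA genes. Another 15 were predicted genes, the 11 of chromosome 9, *Gm10800* and *Gm10801*, and *Gm11399* and *Gm12735*, which overlap the *Sfi1* stretch. *Sfi1* and *Fau-ps2* were also among them. The 6 that remained lay outside the stretches, 2.19% of the limb genes and 2.99% of the glial genes there. These shares are low by construction, since the stretches were built from overlapping exon peaks.

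Of these 6, *Irf7* and *Pias1* had overlapping peaks. The exon peaks of *Adarb1* scored 46.8 in the limb and 27.0 in the glial list and lay 9894 bp apart. *Cacna1c*, a calcium channel gene, reached 47.5 and 45.3 at 21645 bp, *Ubr4*, a ubiquitin ligase gene, 56.1 and 46.1 at 34268 bp, and *Slc4a3*, an anion exchanger gene, 22.8 and 9.01 at 1775 bp. For these 4 genes the lists met different places in the gene.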

How the data were processed

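ChIRP-seq libraries of limb and glial chromatin were mapped by the authors uniquely to mm9 with Bowtie 0.12.9 (version per the submitters' processing notes) and normalized to total reads. The odd and even tracks were merged by the minimum at each position, and peaks were called with MACS against input (its version is not given in the sources used here). The deposited score of each peak is the caller's transformed p-value, 10 times −log10(p), and was divided by 10. The deposited probe table gave the probe sequences and sets. Peaks were used as deposited, in 1-based coordinates, with 1 list per tissue.

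Peaks were overlapped with exon, coding and UTR lines of GENCODE M1 on NCBIM37, the same assembly as mm9. Each peak took the first class it met in the order coding, UTR, noncoding. The gene named is the protein-coding one with most bases of that class in the peak, where there is one. Repeated sequence was the percentage of a peak's 24-base words with another copy in mm9, both strands counted. All 25 probes were compared with each peak on both strands without gaps. Shares have 95% Wilson intervals, which cover counting error only. Reads behind a peak are unknown, so no depth could be weighed.

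Genes named are the 10 highest exon peaks of each class, those on gene lists, overlapping a glial peak, with a 12-base run, with several exon peaks, in both lists, and the top 10 glial exon peaks. The rule capped overlapping peaks at 30 and genes with several peaks at 15, and all 33 and 17 are given. The strongest coding peaks outside the stretches and those at the edge of the exon rule were added after their values were seen. The members, gene lists and rules were chosen with earlier results of these data known. The values of 1 gene picked by the study are not reported here. Alternatives were other overlaps, gene types, thresholds, match lengths and omitted stretches. Overlaps and probe runs were tested on simulated data. Python 3.11.15, numpy 2.4.6, pandas 2.3.3, scipy 1.17.1, numba 0.67.0 and matplotlib 3.10.9 were used.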

Additional observations from a re-analysis of the deposited data

How the results depend on the processing

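No paired analysis was possible because each tissue has 1 list made from merged probe sets, so no replicate numbers remain and no replicate can be left out. Shares are compared with the 95% interval of the value as reported. The share of limb peaks meeting an exon, 10.7%, became 9.58% with at least 50 bp and 4.79% with the midpoint in an exon. It stayed within its interval with protein-coding genes, without pseudogenes, at the study threshold, in low-repeat peaks and without the 4 stretches. The coding share of 73.6% became 56.7% with UTRs first, 52.9% by the midpoint and 80.0% at the study threshold. The share overlapping a glial peak, 10.7%, became 23.3% at the study threshold, 4.44% in low-repeat peaks and 1.46% without the stretches. The median score of 36.3 became 74.9 at the study threshold by construction. Probe runs, 4.89% at 12 bases, were 13% at 11, 1.30% at 13 and 16.9% with 15 of 20 bases identical. The glial exon share of 8.70% became 4.42% by the midpoint, 10.4% at the study threshold and 7.41% without the stretches. Genes in both lists, 13.8% of limb genes, became 9.16% with protein-coding genes and 2.19% without the stretches. Leaving out the stretches or chromosome M was chosen after seeing the data. The stretches were built from exon peaks that overlap a glial peak. The lower glial overlap, the fewer genes in both lists and the lower exon shares without them therefore follow from the rule. Beyond the construction of each alternative, the cause was not tested.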
